A study of Mus musculus with 36 samples.

Results

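The Tpp1-/- effect was compared between the cerebellum (Cb) and the forebrain/midbrain (F/M) in mice of 3 months. The 12 libraries of that age, of 36 libraries of 1, 2 and 3 months, were taken by the age and region in their titles: 3 of F/M and 3 of Cb from control mice, and 3 of F/M and 3 of Cb from Tpp1-/- mice. The quantity followed throughout is the region difference, the log2 fold change of Tpp1-/- against control in Cb minus the same fold change in F/M, so that a positive value stands for a more positive response in Cb. Tpp1-/- mice carry a targeted disruption of the Tpp1 gene in every cell and were bred by crossing heterozygotes. The controls were unaffected siblings of the same age, wild type in the labels of all 6 control libraries of 3 months. The study used that term for both Tpp1+/- and Tpp1+/+ mice, so some of these controls may be heterozygous. No treatment was given. RNA came from whole F/M and whole Cb, in which fewer cells of a type and less RNA per cell cannot be told apart.

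Loss of TPP1, a lysosomal peptidase that removes tripeptides from the ends of proteins, causes a form of neuronal ceroid lipofuscinosis in which storage material builds up in the lysosomes of neurons. Microglia, the resident macrophages of the brain, and astrocytes react to such injury. Microglia turn on lysosomal, lipid and innate immune receptor genes that are low in healthy tissue. Astrocytes raise intermediate filaments and secreted protease inhibitors. Interferons are secreted alarm signals that induce a further set of genes through STAT and IRF transcription factors, among them antiviral enzymes, GTPases and the antigen presentation machinery.

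The libraries held between 16823871 and 23545443 reads counted on genes, and values are given as CPM, the reads of a gene scaled to a common library size with TMM factors. Tpp1 (ENSMUSG00000030894, chromosome 7, 105744811 to 105752235 of GRCm38) stood at 43.4, 42.3 and 42.1 CPM in the F/M controls and 16.1, 17.1 and 17.3 CPM in F/M of Tpp1-/- mice. In Cb it stood at 52.7, 56.0 and 50.8 CPM in controls and 21.5, 21.7 and 21.1 CPM in Tpp1-/- mice. Its region difference was 0.03 ± 0.11 (standard error), and every Tpp1-/- library lay below every control of its region. The regions carried their own markers: the summed level of 10 granule cell genes was 5559 to 6194 CPM in the Cb controls and 397 to 429.9 CPM in the F/M controls, and that of 12 cortex and striatum genes 171 to 195 and 1355 to 1426 CPM. The labels call 8 of the 12 libraries male, yet all 12 held 12199 to 36339 reads of Xist, which is transcribed from the inactive X chromosome of females, and at most 1 read of each of the Y-linked genes Ddx3y, Uty and Eif2s3y. The sex labels are therefore not used to describe any library.

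A pair of Cb libraries stood apart from the other 10. In Cb Tpp1-/- replicate 1 the shortest 10% of genes lay 0.33 above their group mean on the log2 scale and the longest 10% lay at −0.33, and Xist stood at 487 CPM against 1538 and 1446 CPM in the other two. The SD over genes of the deviations from the group mean was 0.387 in that library and 0.320 in Cb control replicate 3, against 0.183 to 0.256 in the other 10. Cb control replicate 3 also had the most of a list of 5 erythrocyte genes, whose sum ran from 80.7 to 262 CPM in the Cb controls. Counts and medians of the main lists are therefore also given without both libraries, which leaves 2 Cb libraries per genotype.

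Lpl alone of 17224 genes tested, or 0.00581%, had a region difference with an adjusted p under 0.1 in edgeR's quasi-likelihood test. An unadjusted p under 0.05 was reached by 260 genes with the more positive effect in Cb (1.51%) and by 344 with the more positive effect in F/M (2.00%). Together these were 604 genes, a smaller share than a threshold of 0.05 would give if no gene differed between the regions. The median standard error of a region difference was 0.22. In counts simulated from the means of these libraries, 200 genes were given a known region difference. Of these, 62 of 100 were called at 1 log2 unit and 89 of 100 at 2, beside 20 false calls among 17056 genes. At 1 log2 unit 5 had the wrong sign. The simulation held no library that stood apart, and its 200 changed genes eased the adjusted threshold. Its rates therefore do not give the power of the test in the real libraries. DESeq2 called 10 genes, which were Lpl and 9 of the genes described below. Without both Cb libraries that stood apart, 808 genes passed with the more positive effect in Cb (4.64%) and 588 with the more positive effect in F/M (3.37%). DEGs (differentially expressed genes) were those with 1.5-fold or more and an adjusted p under 0.1 between the genotypes of a region. Of the 48 DEGs shared by both regions, 33 had the larger log2 fold change in Cb and 25 the larger change in CPM there. Many genes start from different levels in the 2 regions, so both scales are given below.

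Lpl (ENSMUSG00000015568, chromosome 8, 68880491 to 68907448), the lipoprotein lipase, which frees fatty acids from lipoproteins and is made by reactive microglia, stood at 30.3, 32.3 and 31.2 CPM in the F/M controls and 34.4, 41.5 and 33.3 CPM in F/M of Tpp1-/- mice. Its Cb levels were 2.37, 2.52 and 1.503 CPM in controls and 11.6, 7.92 and 9.11 CPM in Tpp1-/- mice. All Tpp1-/- libraries lay above the controls of their region, and every Cb library lay below every F/M library. The log2 fold change was 2.16 in Cb and 0.22 in F/M, and the region difference 1.94 ± 0.24 (adjusted p = 0.029). As a change in CPM, the difference between Tpp1-/- and control means was 7.41 ± 1.13 in Cb and 5.14 ± 2.65 in F/M (standard error), and these overlap within their errors. The excess of F/M over Cb was 14.7-fold in controls and 3.81-fold in Tpp1-/- mice. Without both Cb libraries that stood apart the region difference of Lpl was 1.57 (adjusted p = 1.48e-05). Leaving out F/M control replicate 1, 2 or 3, F/M Tpp1-/- replicate 1 or 3 or Cb control replicate 1 raised the adjusted p to between 0.102 and 0.160, and over all alternatives it ran from 1.67e-14 to 0.757.

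Microglial genes had the more positive log2 effect in Cb as a group. Of 24 homeostatic microglia genes, the receptors and enzymes that mark resting microglia, 22 had a region difference above 0, with a median of 0.34 against −0.01 over all genes tested, of which 48.9% were above 0. Of 36 disease-associated microglia genes, which rise around storage or plaques, 30 were above 0, with a median of 0.27. At an unadjusted p under 0.05 there were 7 homeostatic and 8 disease-associated genes with the more positive effect in Cb (1.51% of all genes). None of either list had it in F/M (2.00% of all genes). Without both Cb libraries that stood apart the disease-associated list had 8 toward Cb and 3 toward F/M at that threshold (4 and 1 after adjustment) and the homeostatic list 7 and 0, against 9.20% and 8.94% of all genes in that fit. The lists were chosen with earlier results of these data known, and their counts are a description. The disease-associated list held 19 DEGs in Cb and 15 in F/M, all higher in Tpp1-/- mice (0.673% and 0.412% of all genes), and the homeostatic list 3 in Cb, Fcrls and Aif1 among them, and 1 in F/M (Fcrls). All Tpp1-/- libraries lay above all controls for 24 of 36 in Cb and 28 of 36 in F/M disease-associated genes and for 13 of 24 in Cb and 6 of 24 in F/M homeostatic genes (4.46% and 11.8% of all genes). As a mean log2 CPM over the list, the homeostatic genes stood at 4.33, 4.31 and 4.25 in the F/M controls and 4.38, 4.40 and 4.35 in F/M of Tpp1-/- mice, and at 3.07, 3.01 and 2.89 and 3.56, 3.33 and 3.40 in Cb. The groups lay apart in both regions, by more in Cb, and all Cb libraries lay below all F/M libraries. Without both Cb libraries that stood apart the medians were 0.22 and 0.06, with 19 of 24 and 23 of 36 above 0. Without Cb Tpp1-/- replicate 1 alone they were 0.27 and 0.12.

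Fcrls (ENSMUSG00000015852, chromosome 3, 87250758 to 87263738), an Fc receptor-like protein of microglia, stood at 23.6, 22.3 and 20.6 CPM in the F/M controls and 35.9, 39.4 and 35.96 CPM in F/M of Tpp1-/- mice. In Cb, the libraries gave 5.99, 5.78 and 5.51 CPM in controls and 27.4, 18.9 and 19.7 CPM in Tpp1-/- mice. The Tpp1-/- libraries lay above the controls in both regions, and Fcrls was a DEG in each. The log2 fold change was 1.93 in Cb and 0.74 in F/M, with a region difference of 1.19 ± 0.19 (adjusted p = 0.176). The difference between the genotypes in CPM was 16.3 ± 2.73 in Cb and 14.9 ± 1.46 in F/M. The same held for Mpeg1 (ENSMUSG00000046805, chromosome 19, 12460779 to 12465284), the pore-forming perforin-2 of macrophages. It stood at 35.3, 39.2 and 35.8 CPM in the F/M controls and 78.6, 84.4 and 73.1 CPM in F/M of Tpp1-/- mice. The Cb libraries held 15.0, 15.8 and 11.7 CPM in controls and 53.4, 52.1 and 57.6 CPM in Tpp1-/- mice. Its log2 fold changes were 1.94 in Cb and 1.10 in F/M (region difference 0.84 ± 0.16, adjusted p = 0.347), while its CPM difference was 40.2 ± 2.07 CPM in Cb and 41.9 ± 3.48 CPM in F/M. Controls had 2.60 times as much Mpeg1 in F/M as in Cb, and Tpp1-/- mice 1.45 times.

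**Figure D1:**
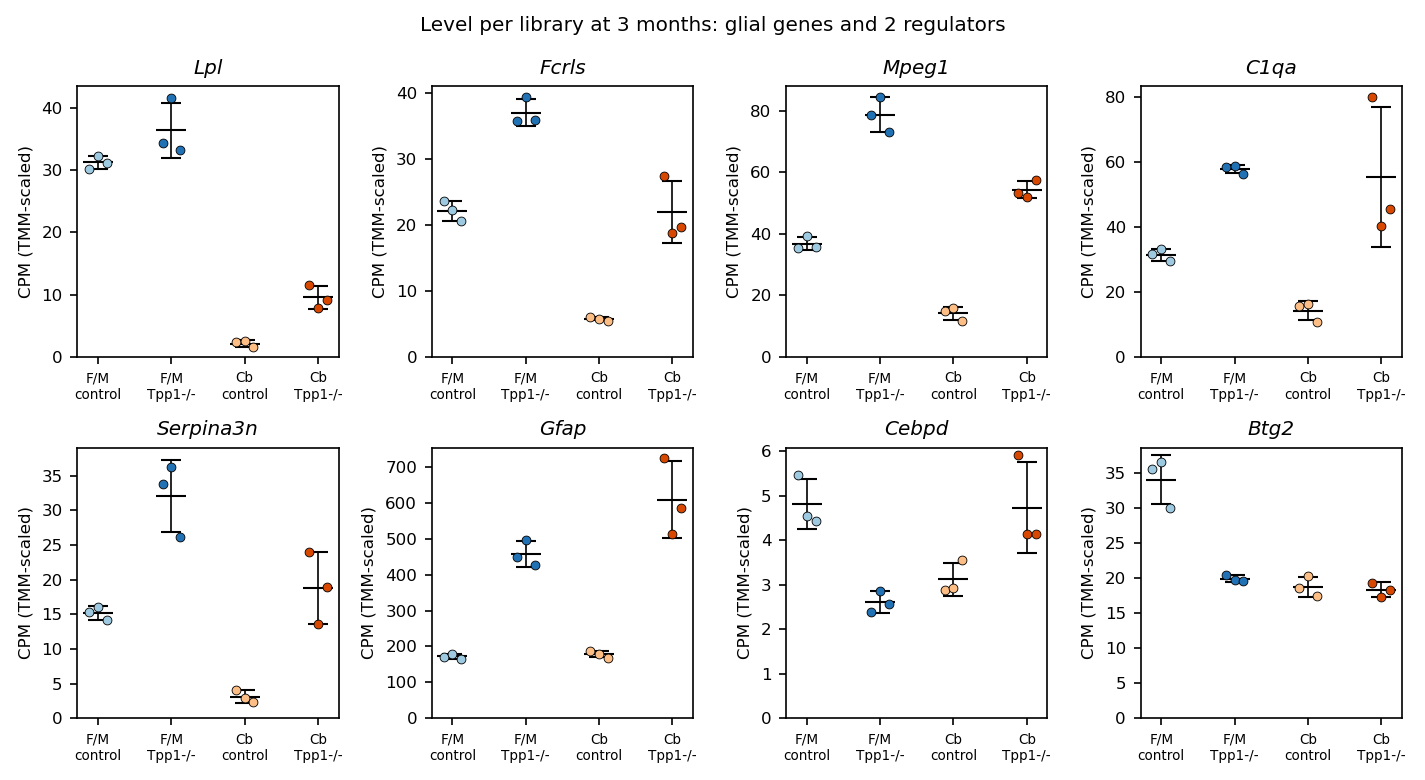
Level in CPM (linear axis from 0) of 8 genes in each of the 12 libraries, with the mean and SD of the 3 libraries of each group as bars. Lpl, Fcrls, Mpeg1, C1qa and Serpina3n were lower in the Cb controls than in the F/M controls, Gfap stood at like levels in both, and Cebpd was higher in Cb and lower in F/M of Tpp1-/- mice.

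Cx3cr1, the fractalkine receptor of resting microglia, stood at 52.8, 51.9 and 52.4 CPM in the F/M controls and 48.3, 59.7 and 51.4 CPM in F/M of Tpp1-/- mice. Levels in Cb were 16.6, 14.3 and 13.9 CPM in controls and 19.98, 23.4 and 22.7 CPM in Tpp1-/- mice. The groups overlapped in F/M and lay apart in Cb, where the adjusted p was 0.0259, and the region difference was 0.54 ± 0.15 (unadjusted p = 0.00292, adjusted p = 0.928). Aif1, the calcium-binding protein IBA1 used to stain microglia, had a region difference of 0.91 ± 0.35 (unadjusted p = 0.02).

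Among the disease-associated genes, the region difference was 1.24 for Ccl6, a chemokine of myeloid cells, 0.87 for Cd68, a lysosomal glycoprotein of phagocytes, and 1.03 for Trem2, a lipid-sensing receptor (unadjusted p = 0.00172, 0.00238 and 0.00296). None of these passed after adjustment. Ccl6 and Cd68 were DEGs in both regions, and Trem2 in Cb (log2 fold change 1.82, adjusted p = 0.000381) with 0.79 in F/M (adjusted p = 0.179). Its adaptor Tyrobp was a DEG in both regions, at 1.89 in Cb and 1.10 in F/M. Cd68 stood at 6.47, 6.78 and 6.01 CPM in the F/M controls and 15.1, 13.7 and 14.7 CPM in F/M of Tpp1-/- mice. Cb values were 2.74, 2.98 and 2.41 CPM in controls and 14.3, 9.57 and 9.72 CPM in Tpp1-/- mice. Its CPM difference was 8.49 ± 1.57 CPM in Cb and 8.09 ± 0.458 CPM in F/M, from a control level 2.37 times higher in F/M.

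Clec7a, Itgax, Cst7, Ccl3 and Mmp12 had few counts in controls, and none of these 5 had a region difference with an unadjusted p under 0.05. Clec7a, a receptor for fungal glucans, stood at 0.255, 0.684 and 0.394 CPM in the F/M controls and 6.11, 6.004 and 4.68 CPM in F/M of Tpp1-/- mice. In Cb it stood at 0.696, 0.413 and 0.319 CPM in controls and 9.65, 7.07 and 8.64 CPM in Tpp1-/- mice, and its region difference was 0.46 ± 0.47. Itgax, the integrin CD11c, had 3, 2 and 9 counts in the F/M controls, 123, 91 and 82 in F/M of Tpp1-/- mice, 4, 4 and 4 in the Cb controls and 121, 87 and 98 in Cb of Tpp1-/- mice. Cst7, the protease inhibitor cystatin F, had 3, 0 and 4, 71, 65 and 63, 1, 4 and 2 and 125, 74 and 85 counts in the same order. Both genes rose in each region from at or near the limit of detection of 3 counts. Ccl3, a chemokine of activated microglia, had 0, 0 and 4 counts in the F/M controls, 20, 14 and 18 in F/M of Tpp1-/- mice, 2, 0 and 3 in the Cb controls and 55, 33 and 21 in Cb of Tpp1-/- mice. The macrophage elastase Mmp12 had at most 3 counts in a control library, and 14 to 22 counts in F/M and 11 to 25 counts in Cb of Tpp1-/- mice. Lyz2, the macrophage lysozyme, had a like control level in both regions (6.82 ± 1.14 CPM in F/M and 7.29 ± 0.912 CPM in Cb, SD of 3), and its region difference was 0.38 ± 0.24.

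Receptor signalling and complement genes also had medians above 0 on the log2 scale. Of 25 genes of Fc receptor and ITAM signalling, the activating motif through which Fc receptors and TREM2 signal, 20 had a region difference above 0 (median 0.33), with 13 DEGs in Cb and 5 in F/M, all higher (0.673% and 0.412% of all genes). All Tpp1-/- libraries lay above all controls for 20 of 25 in Cb and 23 of 25 in F/M (4.46% and 11.8% of all genes). The count above 0 was 17 of 25 without both Cb libraries that stood apart. On the CPM scale the count was near even: 12 of 25 had the larger change in Cb, 7 without Cb Tpp1-/- replicate 1 and 6 without both libraries that stood apart, while 21 of 25 had the lower control level in Cb (47.1% of all genes). Laptm5, a lysosomal membrane protein of blood cells, stood at 31.0, 28.2 and 25.6 CPM in the F/M controls and 39.0, 37.8 and 34.98 CPM in F/M of Tpp1-/- mice. Its Cb levels were 11.3, 10.4 and 11.3 CPM in controls and 23.1, 20.4 and 21.6 CPM in Tpp1-/- mice. Its region difference was 0.58 ± 0.14 (adjusted p = 0.685), and its CPM difference 10.7 ± 0.832 CPM in Cb and 9.01 ± 1.97 CPM in F/M. The kinase Btk and the Fc receptor gamma chain Fcer1g had region differences of 0.98 and 0.81 (unadjusted p = 0.0163 and 0.0215). Blnk, an adaptor below such receptors, had 116, 81 and 127 counts in the F/M controls, 116, 131 and 137 in F/M of Tpp1-/- mice, 12, 5 and 5 in the Cb controls and 72, 43 and 25 in Cb of Tpp1-/- mice. Its groups overlapped in F/M and lay apart in Cb, with a region difference of 2.34 ± 0.47 (adjusted p = 0.402).

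The 3 chains of C1q, the recognition molecule of the classical complement pathway, were DEGs in Cb and had adjusted p values of 0.152 (C1qa), 0.107 (C1qb) and 0.317 (C1qc) in F/M. C1qa (ENSMUSG00000036887, chromosome 4, 136895917 to 136898803) stood at 31.6, 33.3 and 29.6 CPM in the F/M controls and 58.5, 58.8 and 56.5 CPM in F/M of Tpp1-/- mice. In Cb, the libraries gave 15.7, 16.1 and 10.7 CPM in controls and 80.1, 40.2 and 45.7 CPM in Tpp1-/- mice. The Tpp1-/- libraries were above the controls in both regions, and Cb Tpp1-/- replicate 1 lay far above the other two. The region difference was 1.08 for C1qa, 0.82 for C1qb and 1.10 for C1qc, with adjusted p values of 0.929, 1 and 0.699. Without Cb Tpp1-/- replicate 1 the 3 values were 0.71, 0.48 and 0.80. Among the downstream components, C4b was a DEG in both regions, with a region difference of 0.35 ± 0.16 (unadjusted p = 0.0402) and a CPM difference between genotypes of 29.9 ± 2.01 CPM in Cb and 35.4 ± 2.32 CPM in F/M. C3, the central component, was a DEG in Cb (log2 fold change 1.95) and had 0.91 in F/M (adjusted p = 0.434), with a region difference of 1.04 ± 0.40 and CPM differences of 3.08 ± 0.360 in Cb and 1.03 ± 0.202 in F/M. Over the 18 complement genes tested of 20 listed, 13 had a region difference above 0. An unadjusted p under 0.05 was reached by 6, all toward Cb (1.51% of all genes). Without both Cb libraries that stood apart there were 4 toward Cb and 1 toward F/M (9.20% and 8.94% of all genes in that fit). Of the Toll-like receptor and inflammasome list, 23 of 26 genes were tested, and 13 lay above 0. Cd14, Tlr7 and Tlr13 had region differences of 0.88, 0.69 and 0.67 (unadjusted p = 0.0184, 0.0298 and 0.0399). Over all genes 1.51% had an unadjusted p under 0.05 toward Cb.

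The levels in the 2 regions were also set against each other within each genotype. The median level of the homeostatic microglia genes in Cb relative to F/M was −1.60 (log2) in controls and −1.03 in Tpp1-/- mice, and that of the Fc receptor and ITAM genes −1.10 and −0.73. For the disease-associated genes it was −0.14 and 0.02. The medians were below 0 in controls and closer to 0 in Tpp1-/- mice. Over all genes the medians were 0.04 and 0.04. In CPM, 27 of 36 disease-associated and 20 of 24 homeostatic genes had the more positive change in Cb, against 50.6% of all genes. Without both libraries that stood apart these counts were 20 and 17, and without Cb Tpp1-/- replicate 1 alone 18 and 18.

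**Figure D2:**
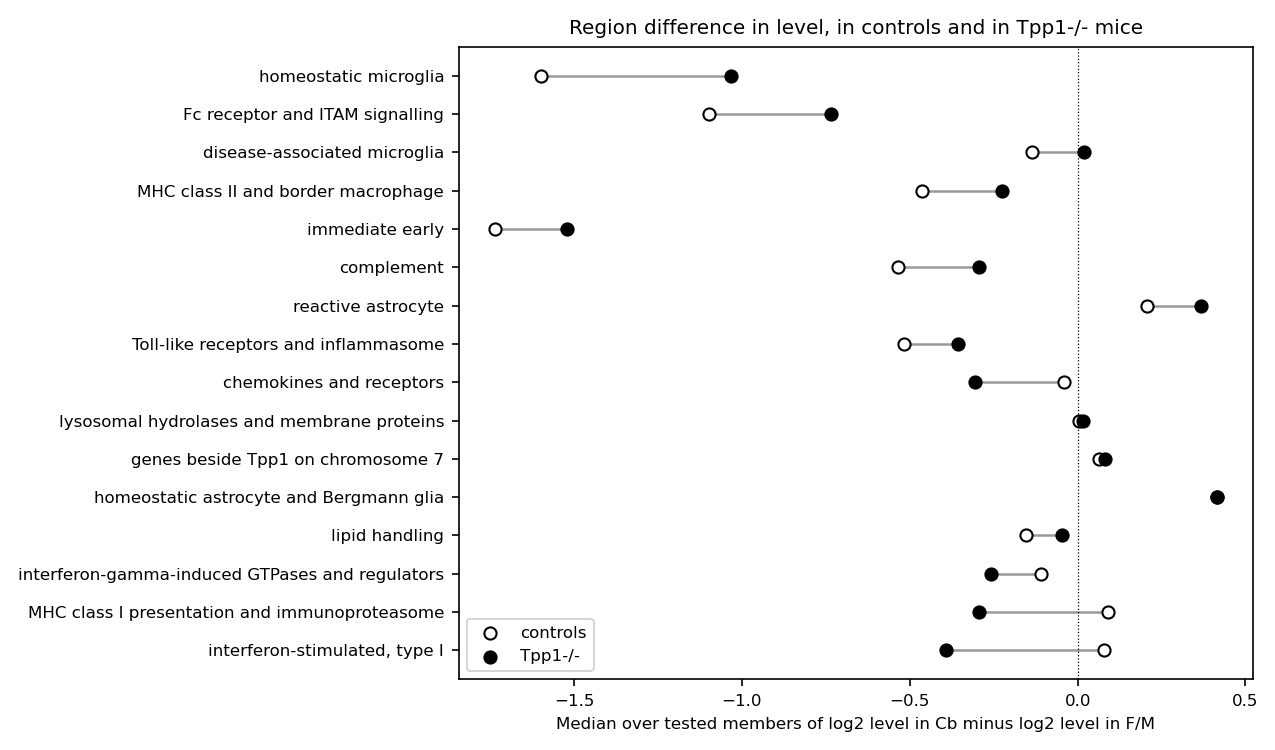
Median over the tested members of each gene family of the log2 level in Cb minus that in F/M, in controls (open circles) and in Tpp1-/- mice (filled circles). The homeostatic microglia median was −1.60 in controls and −1.03 in Tpp1-/- mice, and the type I interferon median 0.08 and −0.39.

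Astrocyte genes split by gene. Of 33 reactive astrocyte genes tested of 37 listed, 21 had a region difference above 0 and the median was 0.13, which became −0.01 without both Cb libraries that stood apart. The list held 6 DEGs in Cb and 2 in F/M (Gfap and Serpina3n), all higher (0.673% and 0.412% of all genes), while the Tpp1-/- libraries lay above all controls for 9 of 33 in Cb and 16 of 33 in F/M (4.46% and 11.8% of all genes). Serpina3n (ENSMUSG00000021091, chromosome 12, 104406729 to 104414329), a secreted inhibitor of serine proteases, stood at 15.3, 16.1 and 14.1 CPM in the F/M controls and 33.8, 36.2 and 26.2 CPM in F/M of Tpp1-/- mice. The Cb libraries held 4.13, 2.89 and 2.37 CPM in controls and 24.0, 13.6 and 19.0 CPM in Tpp1-/- mice. It was a DEG in both regions, with a region difference of 1.51 ± 0.30 (adjusted p = 0.402), while its CPM difference was 15.7 ± 3.04 CPM in Cb and 16.9 ± 3.07 CPM in F/M. Gfap, the intermediate filament of astrocytes, stood at 172, 179 and 165 CPM in the F/M controls and 448, 497 and 426 CPM in F/M of Tpp1-/- mice. Levels in Cb were 188, 180.0 and 169 CPM in controls and 726, 514 and 585 CPM in Tpp1-/- mice. Its controls were at a like level in both regions, and both scales gave the larger value in Cb. The CPM difference was 429 ± 62.4 CPM in Cb and 285 ± 21.4 CPM in F/M, and the region difference 0.36 ± 0.16 (unadjusted p = 0.0479, adjusted p = 1). Without Cb Tpp1-/- replicate 1 it was 0.21. Cd44, the hyaluronan receptor, was a DEG in Cb, with a CPM difference of 7.25 ± 0.773 CPM there and 0.963 ± 0.417 CPM in F/M (region difference 0.54 ± 0.17, adjusted p = 1). The oncostatin M receptor Osmr and the metalloproteinase inhibitor Timp1 were DEGs in Cb, with region differences of 0.14 ± 0.21 and 0.82 ± 0.79. The 30 homeostatic astrocyte and Bergmann glia genes, such as potassium channels and radial glial factors, held no DEG in either region, and 16 of them had a region difference above 0 with a median of 0.01.

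Interferon-inducible genes went the other way, with the more positive effect in F/M on both scales. Of 59 type I interferon-stimulated genes tested (66 listed), 50 had a region difference below 0, with a median of −0.37. An unadjusted p under 0.05 was reached by 13 toward F/M and by none toward Cb (2.00% and 1.51% of all genes). Those were Ifit1, Ifit3, Ifit3b, Isg15, Oasl2, Oas1b, Oas2, Usp18, Rsad2, Ddx58, Parp12, Trim25 and Lgals3bp, antiviral effectors, RNA sensors and regulators of the ubiquitin-like ISG15. The list held 19 DEGs in F/M and 6 in Cb, 4 of them in both (Oasl2, Mx1, Lgals3bp and Ifi204). Each was higher in Tpp1-/- mice. The share of higher DEGs among all genes tested was 0.412% for F/M and 0.673% for Cb. All Tpp1-/- libraries lay above all controls for 51 of 59 genes in F/M (11.8% of all genes) and for 26 of 59 in Cb (4.46%). The change in CPM was more positive in F/M for 53 of the 59. As a mean log2 CPM over the list, the F/M libraries stood at 1.84, 1.91 and 1.79 in controls and 2.85, 2.72 and 2.58 in Tpp1-/- mice, and the Cb libraries at 1.92, 1.95 and 1.84 and 2.39, 2.27 and 2.41. Controls were lower in Cb for 26 of the 59, against 23 of 24 homeostatic microglia, 21 of 25 Fc receptor and 22 of 36 disease-associated genes. Without both Cb libraries that stood apart the median was −0.42, and 14 of 59 genes passed the adjusted threshold toward F/M and none toward Cb, against 3.37% of all genes.

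Interferon acts on its genes through a short promoter element bound by STAT and IRF factors. The core of this interferon-stimulated response element, GAAANNGAA on either strand, was searched in the 300 bases from 250 before to 50 after the RefSeq start of each gene (build GRCm38.p6). It was present in 23 of 45 type I genes with a promoter in the table and in 11 of 21 interferon-gamma-induced genes, against 8.57% of 27025 genes. The homeostatic microglia list held it in 1 of 16 promoters, the disease-associated list in 6 of 29, the complement list in 2 of 10 and the chemokine list in 5 of 17. It was also in 8 of 21 promoters of the genes beside Tpp1 on chromosome 7, a list that includes interferon-inducible Trim genes. The PU.1 motif GAGGAAGT, bound by a factor of macrophages and microglia, was in 4 of 19 Fc receptor and ITAM promoters and 0 of 16 homeostatic microglia promoters, 5 of 21 of the Toll-like receptor list and 3 of 21 of the genes beside Tpp1, against 3.28% of all. The stretches of 3 genes with the more positive effect in F/M and of 1 C1q gene are shown in the direction of transcription, with the matches in capitals: 3 in Ifit3b (chr19:34607757-34607841, plus strand), 2 overlapping ones in Gbp3 (chr3:142559984-142560028, plus strand), 2 overlapping ones in Irgm1 (chr11:48871421-48871465, minus strand) and the PU.1 match in C1qc (chr4:136893080-136893124, minus strand). The matches in Ifit3b, Gbp3 and C1qc read as the reverse complement, and those in Irgm1 as written. A match describes the letters of the window and not binding.
Ifit3b: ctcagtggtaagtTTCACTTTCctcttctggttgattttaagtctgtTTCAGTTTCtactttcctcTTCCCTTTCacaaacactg
Gbp3: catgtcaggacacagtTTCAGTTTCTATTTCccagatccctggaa
Irgm1: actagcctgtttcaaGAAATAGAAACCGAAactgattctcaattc
C1qc: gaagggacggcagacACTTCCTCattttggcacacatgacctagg

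Oas2 (ENSMUSG00000032690, chromosome 5, 120730333 to 120749853), one of the 2'-5' oligoadenylate synthetases that activate RNase L, stood at 0.306, 0.435 and 0.345 CPM in the F/M controls and 1.55, 1.41 and 1.80 CPM in F/M of Tpp1-/- mice. Cb values were 1.07, 0.596 and 1.37 CPM in controls and 0.638, 1.14 and 1.03 CPM in Tpp1-/- mice. It was a DEG in F/M, where the groups lay apart (log2 fold change 2.13, adjusted p = 0.0223), while in Cb they overlapped (−0.11, adjusted p = 0.992). The region difference was −2.24 ± 0.50 (unadjusted p = 0.000495, adjusted p = 0.533). The controls had 2.79 times as much Oas2 in Cb as in F/M, and the Tpp1-/- mice 0.591 times. Its neighbour Oas1b had 2, 2 and 4 counts in the F/M controls and 22, 19 and 9 in F/M of Tpp1-/- mice, against 10, 19 and 18 and 16, 18 and 16 in Cb. Oas1b was a DEG in F/M, where it rose from the limit of detection to counts like those Cb had in both genotypes (unadjusted p of the region difference = 0.000959). Ifitm7, of the family of interferon-induced transmembrane proteins that block virus entry, stood at 0.255, 0.249 and 0.345 CPM in the F/M controls and 0.921, 0.811 and 0.977 CPM in F/M of Tpp1-/- mice. In Cb it stood at 0.418, 0.459 and 0.501 CPM in controls and 0.359, 0.423 and 0.329 CPM in Tpp1-/- mice, with overlapping groups. Its region difference was −1.95 ± 0.44 (unadjusted p = 0.000617, adjusted p = 0.573), on 4 to 19 counts per library. The Oas and Ifitm genes each have near-identical copies, and reads between them may have been split.

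Ifit3b (ENSMUSG00000062488, chromosome 19, 34607970 to 34613401), which binds foreign RNA and has the near-identical copy Ifit3, stood at 2.80, 3.05 and 3.25 CPM in the F/M controls and 7.95, 7.52 and 6.74 CPM in F/M of Tpp1-/- mice. Its Cb levels were 4.59, 5.46 and 3.92 CPM in controls and 6.46, 6.60 and 7.09 CPM in Tpp1-/- mice. All Tpp1-/- libraries lay above the controls of their region, with a CPM difference of 4.37 ± 0.378 CPM in F/M and 2.06 ± 0.485 CPM in Cb. The log2 fold change was 1.29 in F/M, where it was a DEG, and 0.53 in Cb (adjusted p = 0.222). The region difference was −0.76 ± 0.21 (unadjusted p = 0.00325, adjusted p = 0.978). Cxcl10, a chemokine induced by interferon, was a DEG in both regions, at 0.408, 0.124 and 0.246 CPM in the F/M controls and 4.75, 2.92 and 1.85 CPM in F/M of Tpp1-/- mice. In Cb, the libraries gave 0.232, 0.413 and 0.137 CPM in controls and 2.47, 1.14 and 1.41 CPM in Tpp1-/- mice, and its region difference was −0.88 ± 0.81.

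**Figure D3:**
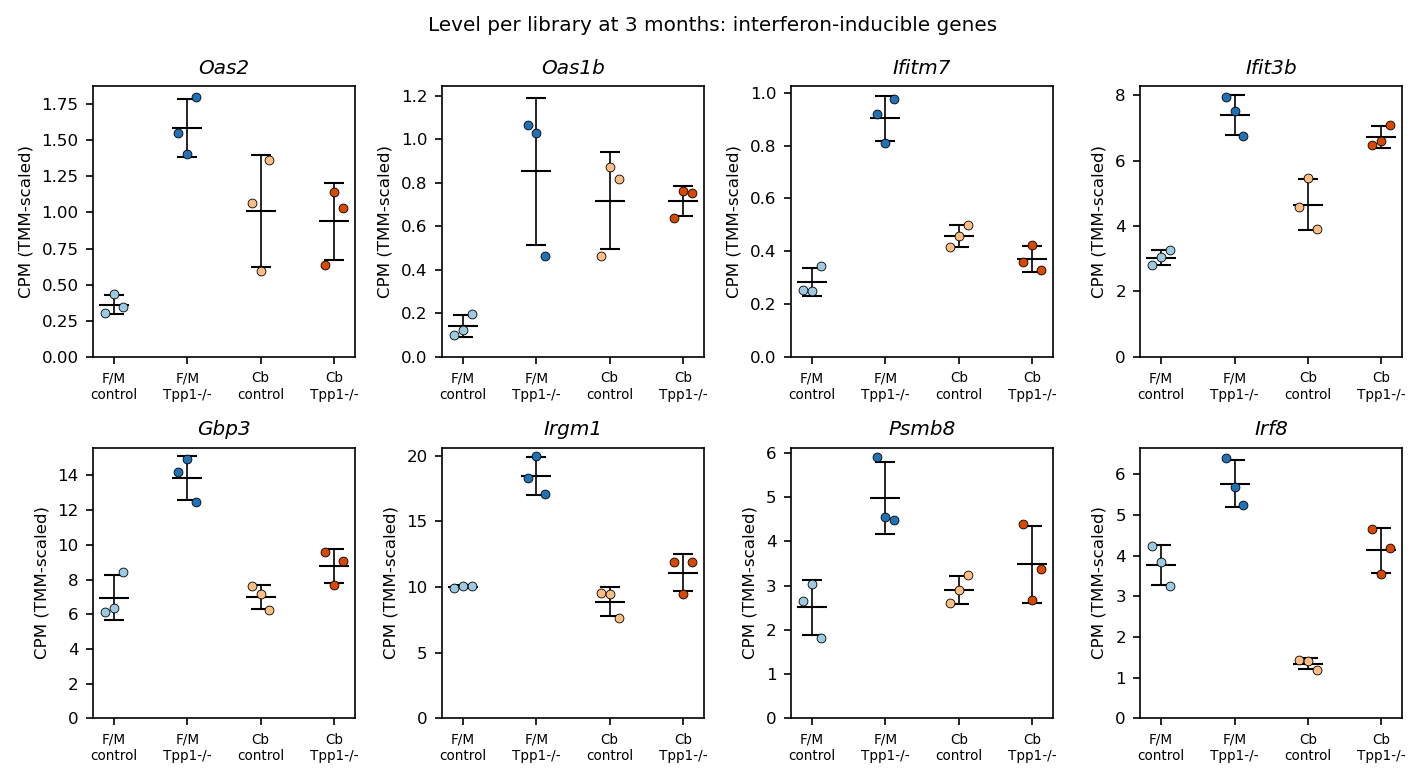
Level in CPM (linear axis from 0) of 8 interferon-inducible genes in each of the 12 libraries, with the mean and SD of the 3 libraries of each group as bars. In F/M the Tpp1-/- libraries lay above the controls for all 8 genes. In Cb they did so for Ifit3b, Gbp3 and Irf8.

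The interferon-gamma-induced GTPases and regulators and the antigen presentation genes leaned the same way with smaller differences. Of 25 GTPase and regulator genes tested, 18 had a region difference below 0 (median −0.21). The list held 3 DEGs in F/M (Gbp3, Gbp6 and Irgm1) and 1 in Cb (Irf8), all higher (0.412% and 0.673% of all genes). Irgm1 (ENSMUSG00000046879, chromosome 11, 48861968 to 48871683), a GTPase of vacuole defence, stood at 9.94, 10.1 and 10.1 CPM in the F/M controls and 18.3, 20.01 and 17.1 CPM in F/M of Tpp1-/- mice. The Cb libraries held 9.56, 9.49 and 7.61 CPM in controls and 11.9, 9.48 and 11.9 CPM in Tpp1-/- mice. It was a DEG in F/M (log2 fold change 0.88) and its groups overlapped in Cb (0.32, adjusted p = 0.65), with a region difference of −0.56 ± 0.18 (unadjusted p = 0.00854, adjusted p = 1). Its controls stood at like levels in the 2 regions. Gbp3 (ENSMUSG00000028268, chromosome 3, 142560026 to 142573209), a guanylate-binding protein, was a DEG in F/M, with a difference of 6.90 ± 1.04 CPM there and 1.78 ± 0.707 CPM in Cb from a control level of 6.96 ± 1.27 and 7.002 ± 0.698 CPM (SD), with a region difference of −0.66 ± 0.21 (unadjusted p = 0.00814). Gbp2 and Iigp1 had region differences of −0.32 ± 0.30 and −0.50 ± 0.34 and were DEGs in neither region. Of 21 genes of MHC class I presentation and the immunoproteasome, 15 lay below 0 (median −0.23). B2m, the light chain of MHC class I, was the one DEG, higher in F/M and in Cb (0.412% and 0.673% of all genes). Leaving out both Cb libraries that stood apart, the medians were −0.17 for the GTPases and regulators and −0.23 for the MHC class I list. The proteasome subunit Psmb8 stood at 2.65, 3.05 and 1.82 CPM in the F/M controls and 5.92, 4.54 and 4.48 CPM in F/M of Tpp1-/- mice. Levels in Cb were 2.60, 2.89 and 3.23 CPM in controls and 4.39, 2.67 and 3.38 CPM in Tpp1-/- mice. The groups lay apart in F/M and overlapped in Cb, and the region difference was −0.74 ± 0.32 (unadjusted p = 0.0374). H2-D1, a classical MHC class I heavy chain, ran from 88.2 to 128 CPM in the Cb controls alone, and its region difference was −0.29 ± 0.23.

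Irf8 was the one gene of its list with an unadjusted p under 0.05 toward Cb. This transcription factor is induced by interferon-gamma and is also needed to make microglia. It stood at 4.23, 3.85 and 3.25 CPM in the F/M controls and 6.40, 5.68 and 5.25 CPM in F/M of Tpp1-/- mice. Cb values were 1.44, 1.42 and 1.18 CPM in controls and 4.67, 3.56 and 4.18 CPM in Tpp1-/- mice. It was a DEG in Cb (log2 fold change 1.61, adjusted p = 0.000375) and had 0.61 in F/M (adjusted p = 0.244), with a region difference of 1.00 ± 0.25 (unadjusted p = 0.00133, adjusted p = 0.699). As with the microglial genes, its controls were higher in F/M, by 2.80-fold, and its CPM difference was 2.79 ± 0.332 in Cb and 2.00 ± 0.441 in F/M.

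**Figure D4:**
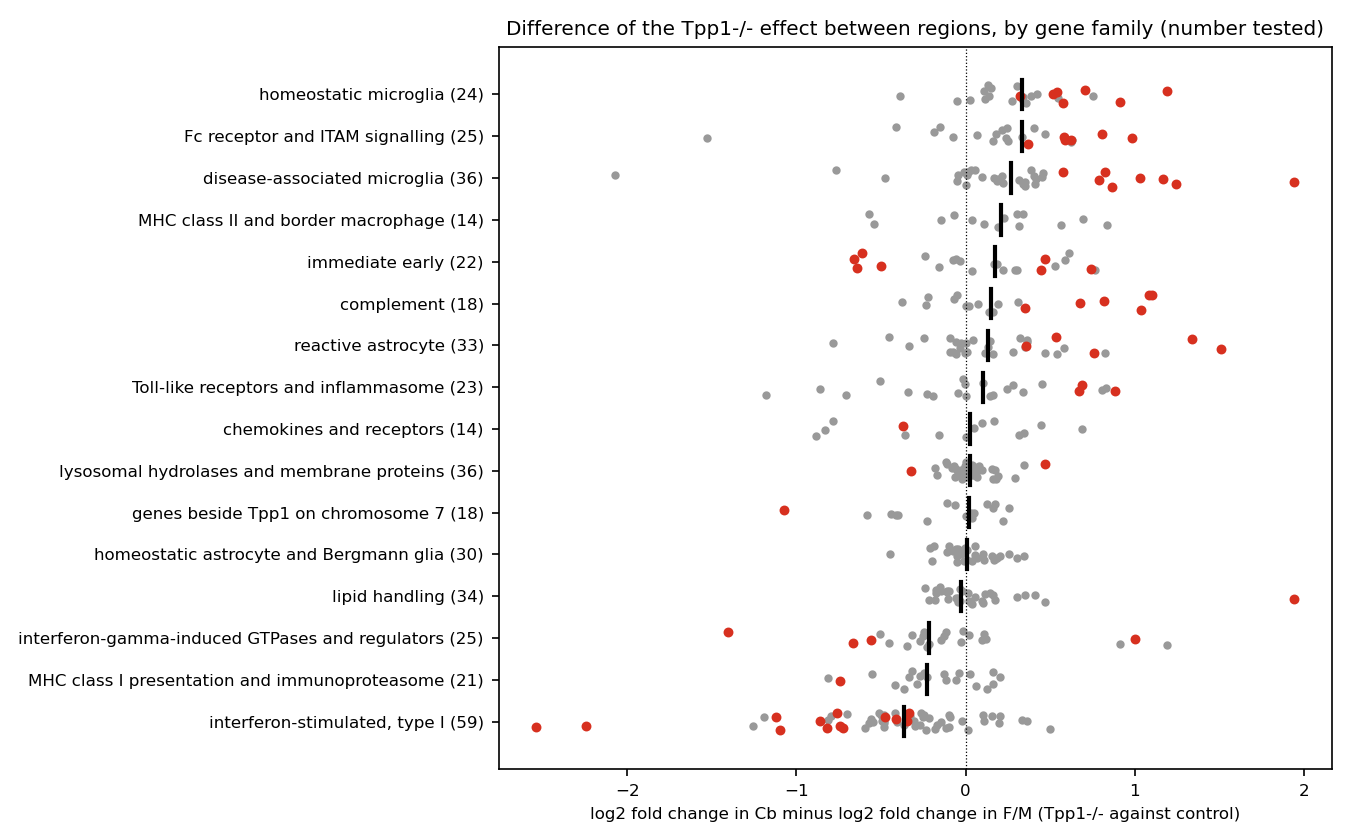
Region difference (log2 fold change in Cb minus that in F/M, horizontal axis) of each tested member of the 16 gene families, with the number tested in brackets, the family median as a bar and members with an unadjusted p under 0.05 in red. Medians ran from −0.37 in the type I interferon list to 0.34 in the homeostatic microglia list.

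Genes beside Tpp1 on chromosome 7, among them interferon-inducible Trim genes, were listed apart because they lie near the targeted locus. Of 18 such neighbours tested of 25 listed, 10 had a region difference above 0 (median 0.02). Trim30a and Trim30d were DEGs in F/M, both higher (0.412% of all genes). None of the 18 was a DEG in Cb, where 0.673% of all genes were higher and 0.186% lower. Trim30d stood at 1.22, 0.684 and 1.13 CPM in the F/M controls and 2.42, 2.92 and 2.01 CPM in F/M of Tpp1-/- mice. In Cb it stood at 1.53, 1.51 and 1.78 CPM in controls and 1.83, 1.61 and 2.02 CPM in Tpp1-/- mice, with a region difference of −1.07 ± 0.34 (unadjusted p = 0.00692). Trim34a and Trim21 had region differences of −0.58 ± 0.34 and −0.40 ± 0.25. The Trim30 and Trim34 genes have near-identical copies there.

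A few genes went in opposite directions in the 2 regions, with no overlap between the groups in either. Over all genes this held for 28 that were higher in Cb and lower in F/M of Tpp1-/- mice and for 30 the other way round, 0.337% of those tested. Cebpd (ENSMUSG00000071637, chromosome 16, 15887286 to 15891031), a transcription factor of the acute phase response, stood at 5.45, 4.54 and 4.43 CPM in the F/M controls and 2.38, 2.87 and 2.57 CPM in F/M of Tpp1-/- mice. Its Cb levels were 2.88, 2.94 and 3.55 CPM in controls and 5.90, 4.15 and 4.13 CPM in Tpp1-/- mice. It was a DEG in F/M, where it fell (log2 fold change −0.89, adjusted p = 0.0867), and had 0.60 in Cb (adjusted p = 0.327). The region difference was 1.49 ± 0.26 (adjusted p = 0.271). Slc16a3, a lactate exporter, stood at 3.92, 3.54 and 3.15 CPM in the F/M controls and 2.38, 2.27 and 2.93 CPM in F/M of Tpp1-/- mice. In Cb, the libraries gave 0.789, 0.550 and 0.638 CPM in controls and 1.64, 1.31 and 1.31 CPM in Tpp1-/- mice. It was a DEG in Cb (adjusted p = 0.0513) and not in F/M (adjusted p = 0.706), and its region difference was 1.59 ± 0.31 (adjusted p = 0.402). Chrnb4, a subunit of nicotinic receptors, and Abcb6, a porphyrin transporter, lay the other way round and were DEGs in neither region. Chrnb4 stood at 0.612, 0.435 and 0.591 CPM in the F/M controls and 0.921, 1.14 and 1.44 CPM in F/M of Tpp1-/- mice. The Cb libraries held 2.18, 1.88 and 2.23 CPM in controls and 1.12, 1.48 and 1.31 CPM in Tpp1-/- mice, with a region difference of −1.75 ± 0.36 (adjusted p = 0.402). Abcb6 had 0.866, 0.808 and 0.887 CPM in the F/M controls and 1.75, 1.41 and 2.16 CPM in F/M of Tpp1-/- mice. Levels in Cb were 1.21, 1.65 and 1.37 CPM in controls and 0.957, 0.889 and 1.17 CPM in Tpp1-/- mice, with a region difference of −1.53 ± 0.35 (adjusted p = 0.573). Mgl2, a lectin of border macrophages, lay lower in every Tpp1-/- library of F/M and overlapped in Cb, at 0.24 to 2.27 CPM in all 12 libraries.

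Activity-regulated genes gave different counts on the 2 scales. Of 22 immediate early genes, 13 had a region difference above 0, against 48.9% of all genes. An unadjusted p under 0.05 was reached by 3 toward Cb and 4 toward F/M (1.51% and 2.00% of all genes). The change in CPM was more positive in Cb for 17 of the 22, against 50.6% of all genes. The list held 4 DEGs in Cb (Fosb, Nr4a1, Nr4a2 and Nr4a3) and 1 in F/M (Btg2), all lower in Tpp1-/- mice (0.186% and 0.0523% of all genes). Btg2, an antiproliferative early gene, stood at 35.5, 36.6 and 30.0 CPM in the F/M controls and 20.4, 19.7 and 19.5 CPM in F/M of Tpp1-/- mice. Cb values were 18.6, 20.2 and 17.4 CPM in controls and 19.3, 17.2 and 18.3 CPM in Tpp1-/- mice, with overlapping groups. Its region difference was 0.74 ± 0.15 (adjusted p = 0.402), and its F/M levels in Tpp1-/- mice overlapped those of Cb. Fosb, a subunit of AP-1, and the nuclear receptor Nr4a2 had log2 fold changes of −0.72 and −0.65 in Cb and −0.05 and −0.01 in F/M.

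Several of the genes with a small p toward F/M were expressed far more in F/M than in Cb, and differed between the genotypes in Cb. Lamp5, a membrane protein of cortical neurons, stood at 122, 122 and 102 CPM in the F/M controls and 117, 118 and 119 CPM in F/M of Tpp1-/- mice. In Cb it stood at 10.4, 11.97 and 4.96 CPM in controls and 3.63, 2.29 and 0.986 CPM in Tpp1-/- mice. The F/M groups overlapped, and in Cb all Tpp1-/- libraries lay below the controls. Rtn4rl2, a Nogo receptor homologue, had 6, 10 and 10 counts in the Cb controls and 2, 1 and 1 in Cb of Tpp1-/- mice, against 213 to 283 counts in F/M. Krt9, a keratin, had 22, 24 and 13 and 10, 4 and 4 counts in Cb. In Cb of Tpp1-/- mice Rtn4rl2 was at the limit of detection of 3 counts, and Krt9 near it. Lamp5, Rtn4rl2 and Krt9 were DEGs in Cb. Myo5b, a motor of vesicle recycling, and C1ql3, a synaptic C1q-like protein, had region differences of −1.14 ± 0.19 and −0.79 ± 0.17 (adjusted p = 0.176 and 0.489) and were DEGs in Cb. The summed level of 12 cortex and striatum genes ran from 171 to 195 CPM in the Cb controls. In Cb of Tpp1-/- mice it ran from 159 to 223 CPM. Of the 12 genes, 3 had an unadjusted p under 0.05 toward F/M (2.00% of all genes). In F/M, the midbrain and thalamus genes summed to 228 to 246 CPM in controls and 168 to 191 CPM in Tpp1-/- mice, and those of oligodendrocytes to 6738 to 6998 and 5671 to 6309 CPM. Of the 11 midbrain and thalamus genes, 4 (En1, Tcf7l2, Lhx9 and Prkcd) had an unadjusted p under 0.05 toward Cb (1.51% of all genes). The 11 genes had a median region difference of 0.56. Their median was 0.22 without Cb Tpp1-/- replicate 1, with 6 of 11 above 0, and 0.16 without both libraries that stood apart. Of the cerebellar granule cell genes 10 of 10 lay above 0, of the oligodendrocyte genes 7 of 10 and of the ependyma and cilia genes 0 of 9. With both libraries that stood apart left out, 4.64% of all genes passed the adjusted threshold toward Cb and 3.37% toward F/M. Toward Cb, 4 of 10 granule cell, 3 of 10 Purkinje cell and 2 of 11 midbrain and thalamus genes passed. Toward F/M, 5 of 9 ependyma, 4 of 10 oligodendrocyte and 2 of 12 cortex and striatum genes passed. In the same fit 0 of the 10 oligodendrocyte genes lay above 0. The part of these markers in the values above was not tested.

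The remaining lists are given by their counts and medians. Of 36 lysosomal hydrolases and membrane proteins, the class of proteins TPP1 belongs to, 21 had a region difference above 0 with a median of 0.03, and the median log2 fold change was 0.12 in Cb and 0.12 in F/M. The list held 4 DEGs in Cb and 1 in F/M, all higher (0.673% and 0.412% of all genes), while the Tpp1-/- libraries lay above all controls for 10 of 36 in Cb and 21 of 36 in F/M (4.46% and 11.8% of all genes). Those in Cb were cathepsin C (Ctsc), cathepsin H (Ctsh), the hexosaminidase subunit Hexa and progranulin (Grn), with region differences of 0.47 ± 0.17, 0.35 ± 0.23, 0.29 ± 0.17 and −0.07 ± 0.16. Grn was a DEG in both regions, at 0.68 in Cb and 0.75 in F/M. Of 34 lipid handling genes, Lpl was the one with an unadjusted p under 0.05, toward Cb (1.51% of all genes), and the median was −0.03. Apoe, the main apolipoprotein of the brain, ran from 905 to 1647 CPM within the Cb Tpp1-/- libraries, and its region difference was 0.41 ± 0.28. Of 14 genes of MHC class II and border macrophages and of 14 chemokines and receptors tested, 10 and 8 lay above 0, with medians of 0.21 and 0.03. At an unadjusted p under 0.05 the former had no gene and the latter 1, toward F/M (2.00% of all genes). Cd74, the invariant chain, had −0.54 ± 0.32. Of lymphocyte markers 2 of 13 and of monocyte and neutrophil markers 5 of 11 had enough counts to be tested. The lymphocyte list summed to 2.32 to 2.65 CPM in the Cb controls, 2.37 to 3.51 CPM in Cb of Tpp1-/- mice, 11.2 to 12.5 CPM in the F/M controls and 9.55 to 12.7 CPM in F/M of Tpp1-/- mice.

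**Figure D5:**
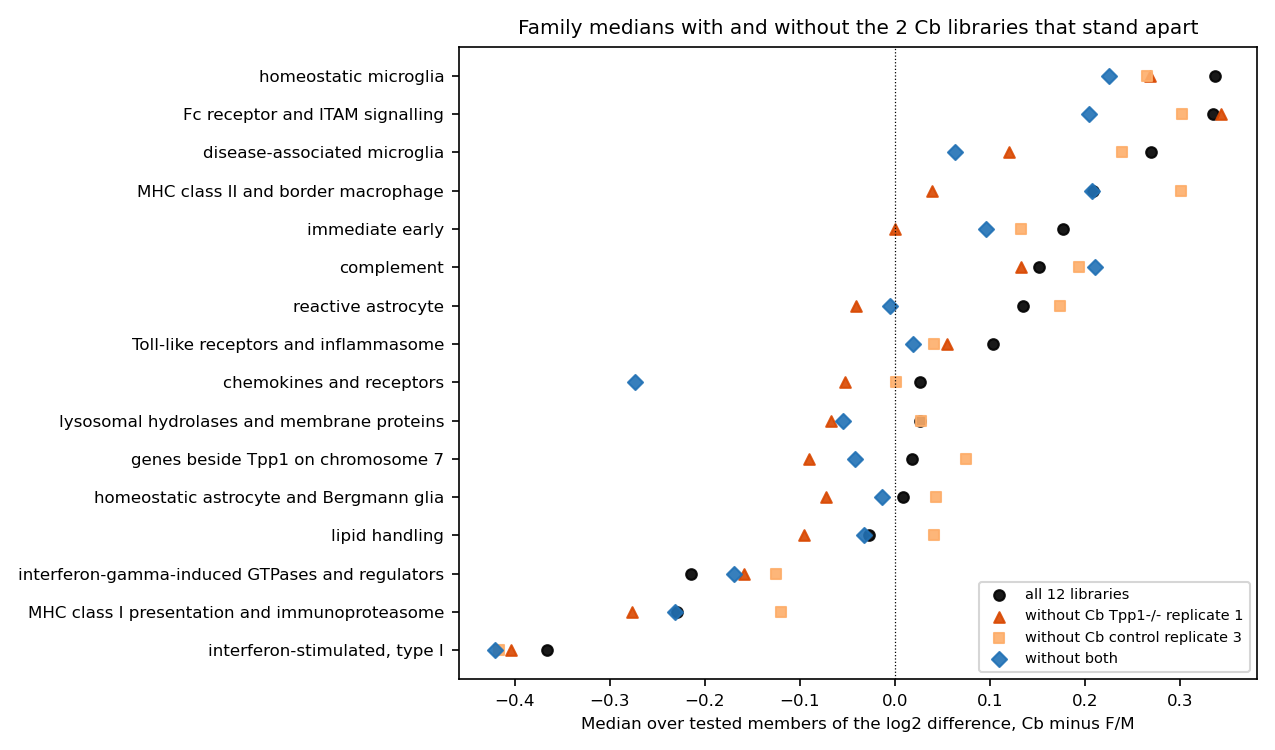
Median region difference (log2) of each of the 16 gene families with all 12 libraries (circles), without Cb Tpp1-/- replicate 1 (triangles), without Cb control replicate 3 (squares) and without both (diamonds). The type I interferon median stayed between −0.37 and −0.42, and that of the disease-associated microglia list was 0.27 with all libraries and 0.06 without both.

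The same lists were followed at the earlier ages of the series. For the homeostatic microglia genes the median region difference was 0.07 in mice of 1 month and −0.26 in mice of 2 months, beside the 0.34 at 3 months. In the same order of age, that of the Fc receptor and ITAM genes was 0.07, −0.27 and 0.33, and that of the type I interferon genes 0.01, −0.06 and −0.37. The disease-associated microglia genes had 0.06, −0.04 and 0.27. At 2 months the median was also below 0 in lists of other glia, at −0.28 for homeostatic astrocytes, −0.21 for oligodendrocytes and −0.29 for their precursors. The midbrain and thalamus neuron markers lay farther below 0 at 2 months, with a median of −3.02 and 0 of 11 above 0, and their median change from 2 to 3 months was 3.51. The part of this shift in the medians of the glial lists was not tested. In a model of all 36 libraries, the change of the region difference from 2 to 3 months passed an adjusted p under 0.1 for 133 of 18322 genes upward (0.726%) and 13 downward (0.0710%). Lpl, Fcrls, Serpina3n, Laptm5, Ccl6 and C1qc were among the first, at 1.74, 1.47, 2.26, 0.96, 2.30 and 1.37 on the log2 scale. Part of these changes lay in negative values at 2 months, where the region difference was −0.76 for Serpina3n (adjusted p = 0.0466), −1.07 for Ccl6 (adjusted p = 0.342), −0.39 for Laptm5, −0.29 for Fcrls and −0.28 for C1qc, against 0.20 for Lpl. Of the midbrain and thalamus markers 4 of 11 passed upward as well. None of the 59 type I interferon genes passed in either direction. The ages were counted with different annotations and strand settings, and Xist and Y-linked genes separate the mice of 3 months from those of 1 and 2 months, so age cannot be told apart from these.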

How the data were processed

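RNA from whole F/M and whole Cb was sequenced from TruSeq stranded mRNA libraries. For the files of 3 months, the authors aligned reads with STAR 2.5.2b to GRCm38 and deposited read counts per GENCODE M18 gene from featureCounts (1.6.2 in the file headers, strand setting 1). Whether this setting matches the read orientation of the kit, and how the fractional counting of multi-mapped reads named in the headers led to whole numbers, is not given in the sources used here. The deposited counts are whole numbers and not normalized, and each precision given covers counting and the spread between 3 libraries.

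Here genes were filtered with filterByExpr, scaled by TMM and fitted with edgeR 4.0.16 (R 4.3.3) over the 12 libraries by quasi-likelihood, with Benjamini-Hochberg adjustment. The adjusted p threshold was 0.1 and DEGs also needed 1.5-fold. ± after a log2 value or a CPM difference is the standard error. DESeq2 1.42.0, limma 3.58.1, other scalings and filters, a replicate block, a sex term and libraries left out were alternatives. The steps were tested on simulated data. Genes were named by rule: Lpl as the only call, the 10 smallest p values in each direction, the 3 smallest of each list, and Tpp1 with 20 known glial and interferon genes; members of a counted set were named after their values were seen. The members and lists were chosen with earlier results of these data known. The sources do not say that the mice came from separate litters. Motifs were counted in RefSeq promoters. Tables of 1 and 2 months entered only the comparison of ages. Some genes that met the naming rule are not reported here.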

Additional observations from a re-analysis of the deposited data

Results flagged for a closer look

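The Tpp1-/- effect differed between the regions by the test of the difference for Lpl, at 1.94 on the log2 scale (adjusted p = 0.029, edgeR quasi-likelihood test). In 4 further named genes every Tpp1-/- library of one region lay above its controls and every Tpp1-/- library of the other lay below, and the test of the difference did not pass after adjustment. Cebpd was higher in Cb and lower in F/M, with a region difference of 1.49 (adjusted p = 0.271). Slc16a3 went the same way, at 1.59 (adjusted p = 0.402). Chrnb4 was lower in Cb and higher in F/M, at −1.75 (adjusted p = 0.402), and Abcb6 at −1.53 (adjusted p = 0.573). Such opposite separation was seen in 58 of 17224 genes.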

How the results depend on the processing

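Of the values for single genes, 1796 kept their direction and their side of the threshold over the alternatives run, 84 newly passed, 42 of them without both Cb libraries that stood apart, and 8 no longer passed, all 8 for Lpl. The count of 1 gene with a region difference became 10 with DESeq2, 0 with limma-voom weighted by region (397 genes at an unadjusted p under 0.05), 75 with no filter on low counts, 2 with an offset for gene length and 1396 without both Cb libraries that stood apart. The last 2 were chosen after the data were seen. The 148 DEGs of Cb became 35 with weighting by region, 296 with no filter, 677 without both libraries and 46 when only the 6 libraries of Cb were fitted. The 80 DEGs of F/M became 389, 189, 381 and, with only the 6 libraries of F/M, 309. The cause of these changes was not tested.

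Correlations of the deviations of same-numbered libraries from their group means ran from −0.0696 to 0.0985. They cannot tell whether same-numbered F/M and Cb libraries came from 1 mouse, because deviations in both regions of a mouse need not correlate. With a replicate block for same-numbered F/M and Cb libraries as 1 mouse, there were 0 genes with a region difference (edgeR, 477 at an unadjusted p under 0.05), 46 DEGs in Cb and 19 in F/M. With a replicate block within region there were 5 genes with a region difference.

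Leaving out 1 library at a time gave 0 to 23 genes with a region difference, 23 without Cb control replicate 3, 2 without Cb Tpp1-/- replicate 1 or 2, and 0 without any F/M control, F/M Tpp1-/- replicate 1 or 3 or Cb control replicate 1 (edgeR, 435 to 652 at an unadjusted p under 0.05). The DEGs of F/M ran from 34 without F/M control replicate 2 to 155 without Cb Tpp1-/- replicate 1, with 42 and 49 without F/M controls 1 and 3 and 41 and 36 without F/M Tpp1-/- replicates 1 and 2.

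Without both Cb libraries the list medians of the region difference were 0.0635 for disease-associated microglia, 0.225 for homeostatic microglia, 0.204 for Fc receptor and ITAM signalling, 0.0193 for Toll-like receptors (0.0198 with the length offset), −0.273 for chemokines, −0.00586 for reactive astrocytes and −0.0550 for lysosomal genes. The larger CPM change was then in Cb for 6 Fc receptor, 11 lysosomal and 2 MHC class I genes. With 1 library left out at a time, the medians ran from 0.120 to 0.357 for disease-associated microglia, 0.282 to 0.450 for Fc receptor and ITAM signalling, 0.0864 to 0.248 for complement, −0.0223 to 0.175 for Toll-like receptors, −0.0415 to 0.263 for reactive astrocytes, −0.0727 to 0.0478 for homeostatic astrocytes, −0.0953 to 0.0414 for lipid handling, −0.0678 to 0.0664 for lysosomal genes, −0.299 to −0.0726 for interferon-gamma-induced genes, −0.276 to −0.0729 for MHC class I, 0.0393 to 0.302 for MHC class II, 0.000216 to 0.266 for immediate early genes and −0.0909 to 0.0870 for genes beside Tpp1. The count with the larger CPM change in Cb ran from 7 to 13 for Fc receptor, 10 to 22 for homeostatic astrocyte, 11 to 24 for lysosomal, 1 to 8 for MHC class I and 4 to 13 for genes beside Tpp1, each lowest without Cb Tpp1-/- replicate 1. The type I interferon median ran from −0.422 to −0.290 and the homeostatic microglia median from 0.265 to 0.376.

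A direction reversed for Tpp1 without Cb control replicate 3 (range with 1 library left out −0.00398 to 0.0702) and without both Cb libraries (−0.00642), and, without F/M control replicate 3, for Itgax (−0.581 to 0.495), Cst7 (−0.0857 to 1.05) and Ccl3 (−3.00 to 1.35), which are at or near the limit of detection in controls. The median standard error of a region difference was 0.22 with 3 libraries per group.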
